A study of Mus musculus with 4 samples.

Results

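The 35 genes described here encode the proteins of glucose uptake, glycolysis, lactate handling, the pentose phosphate pathway and gluconeogenesis. They were taken from a list of glucose metabolism genes by symbol and grouped by pathway and isoenzyme. The rule used no values, but the list was chosen with earlier results of these data known. Each gene was found among the 55335 rows of the deposited table. Of the 35, 30 passed the filter on low values (mean CPM of 1 or more, where CPM is the reads of a gene per 1000000 counted reads), among 13019 genes in all. The 5 that did not pass, Eno2, Slc16a3, Fbp1, Pck1 and Pck2, are given by their levels and were left out of the main test.

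The 4 RNA-seq libraries came from C57BL/6 mice of 6-8 weeks, from cells of the stomach corpus, and were made by SMART-Seq2, in which cDNA of whole transcripts is amplified by PCR. All mice carried Iqgap3-2A-tdTomato, in which the Iqgap3 locus drives the red fluorescent protein tdTomato, so the reporter reads the locus and not a cell type. Living cells with the epithelial surface protein EpCAM were sorted by tdTomato: IQ3pos is the Iqgap3high fraction and IQ3neg the Iqgap3low/neg fraction. IQ3pos_1909A and IQ3neg_1909B each pool 3 mice, IQ3pos_1910A and IQ3neg_1910B each pool 4, and no label says whether equal numbers mark the same mice.

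Glycolysis splits glucose into pyruvate in the cytosol and yields ATP and NADH. The upper steps spend ATP to make triose phosphates, the lower steps recover ATP, and lactate dehydrogenase interconverts pyruvate and lactate. The pentose phosphate pathway leaves glycolysis at glucose 6-phosphate: its oxidative arm makes NADPH and ribulose 5-phosphate, and its non-oxidative arm exchanges sugars between ribose 5-phosphate and glycolytic intermediates. Gluconeogenesis runs the pathway towards glucose, with its own enzymes at the steps that glycolysis cannot reverse. In the stomach corpus, acid-secreting parietal cells are rich in mitochondria and have a high demand for ATP.

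The libraries held 90714929 reads in IQ3pos_1909A, 279125309 in IQ3pos_1910A, 115016307 in IQ3neg_1909B and 418401262 in IQ3neg_1910B. The 20 most abundant genes took 18.5 to 25.3% of the reads in IQ3pos libraries and 57.9 to 63.4% in IQ3neg libraries, so CPM were scaled with TMM factors (a trimmed mean of ratios between libraries) before any comparison. All levels below are such scaled CPM unless stated. Epcam stood at 339 and 443 in IQ3pos libraries and at 278 and 319 in IQ3neg libraries. The Iqgap3 transcript stood at 0.158 and 7.99 in IQ3pos libraries and at 0.0592 and 0.541 in IQ3neg libraries, so the fractions overlapped for the gene that drives the reporter (limma log2 difference 1.34, adjusted p = 0.623). Summed markers of parietal cells (3 genes) stood at 5332 and 6094 in IQ3pos libraries and at 1019 and 1598 in IQ3neg libraries, those of pit cells (4 genes) at 6831 and 8359 against 1381 and 1633, and those of dividing cells (5 genes) at 771 and 2165 against 130.5 and 213. Chief cell markers (5 genes) ran the other way, with 36448 and 16708 in IQ3pos libraries and 565816 and 483672 in IQ3neg libraries, as did enteroendocrine markers (5 genes), with 258 and 149.9 against 22014 and 12183. Of the neck cell markers, Tff2 stood at 3034 and 4706 in IQ3pos libraries and at 565 and 713 in IQ3neg libraries, and Muc6 at 273 and 349 against 358 and 665. Tuft cell markers (3 genes, all below in IQ3pos) summed to 336 and 96.7 in IQ3pos libraries and to 440.4 and 1092.5 in IQ3neg libraries. Summed immune markers (5 genes) stood at 191 and 42.1 in IQ3pos libraries and at 502 and 85.5 in IQ3neg libraries, and endothelial, fibroblast and muscle, and erythroid markers at 13.8 or less in every library. The part of these marker differences in the results below was not tested, and in bulk RNA a change in the number of cells of a type and a change in RNA per cell cannot be told apart.

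The glucose metabolism genes leaned towards IQ3pos, but none passed the test over all genes. Both IQ3pos libraries stood above both IQ3neg libraries for 14 of the 30 tested members (46.7%), where 25.5% of all tested genes did so. They stood below for 1 member, the hexokinase gene Hk2 (3.33%), where 21.6% of all tested genes did so, and 15 members overlapped. Over all 35 members with no filter on low values, 16 stood above, 2 below (Hk2 and Eno2) and 17 overlapped, where 23.7% of all genes stood above and 10.5% below. The order of the members added above, Pck1 and Slc16a3, rests on few reads. Pck1 had 2 and 9 reads in IQ3pos libraries and 0 and 4 in IQ3neg libraries, and Slc16a3 had 11 and 414 against 2 and 2. The median log2 difference, IQ3pos minus IQ3neg on the log2(scaled CPM + 1) scale, was 0.72 over the 30 members and 0.10 over all tested genes. Of the members 22 were positive and 8 negative, where 52.9% of all tested genes were positive. With limma-trend and Benjamini-Hochberg adjustment over all 13019 genes, 0 of 30 members were called at an adjusted p under 0.05, beside 0.023% of all genes called higher and 0.192% called lower. At an unadjusted p under 0.05 in limma, 4 members were higher (Ldhb, Pgk1, Tpi1 and Gpi1) and 0 were lower, beside 7.07% of all genes higher and 7.83% lower. By edgeR's quasi-likelihood test on whole reads recovered from the CPM, 0 of 33 members were called, beside 0.0535% of genes higher and 0.214% lower. Its own filter on low values also kept Eno2, Slc16a3 and Pck2. DESeq2 called 3 members higher (Ldhb, Pgk1 and Tpi1), beside 5.45% of genes higher and 8.3% lower. In limma, a filter at a mean of 5 CPM gave 1 member called higher (Ldhb), beside 0.5% of genes higher and 0.806% lower. A block for the library number gave 2 members called higher (Ldhb and Pgk1), beside 2.34% of genes higher and 1.54% lower.

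How far the members leaned depended on single libraries. Without IQ3pos_1909A, the remaining IQ3pos library stood above both IQ3neg libraries for 23 of 30 members, with 41.1% of all genes doing so. The count below moved to 8 of 31 members without IQ3neg_1909B (37.3% of all genes), to 8 of 31 without IQ3pos_1910A (40.3% of all genes) and to 4 of 30 without IQ3pos_1909A (35.7% of all genes). The members' median difference was 0.01 without IQ3neg_1909B, where that of all genes was −0.23. Since labels do not say how the pools were made, p-values measure the spread between these libraries, part of which may be technical.

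**Figure D1:**
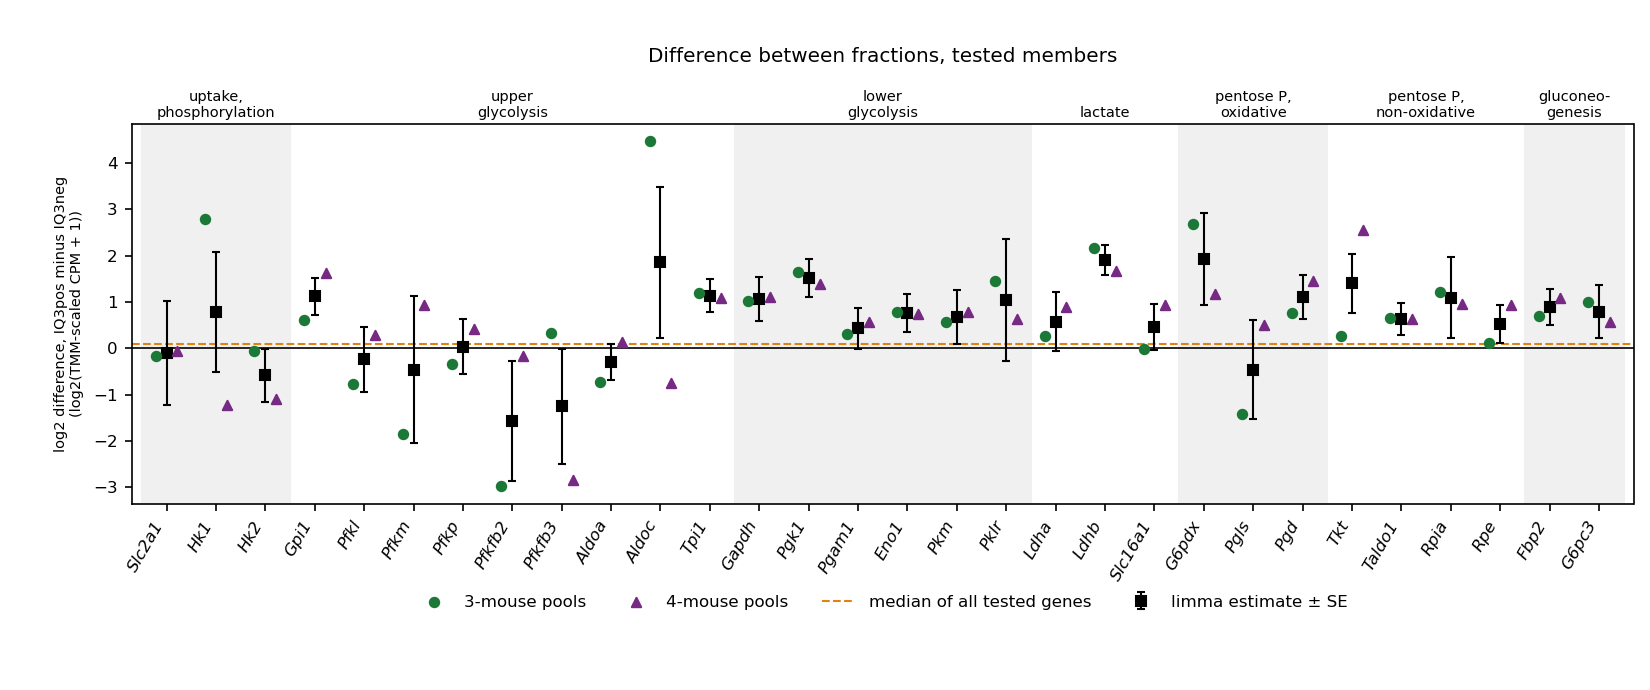
Log2 difference of each of the 30 tested genes, IQ3pos minus IQ3neg, with the limma SE as a bar and the differences within the 3-mouse and the 4-mouse libraries as separate marks; the dashed line is the median of all tested genes, 0.10. Ldhb and G6pdx lie farthest to the positive side at 1.91 and 1.93, and the bar of Ldhb (0.32) is the shorter.

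The sequences just upstream of Ldhb, Pgk1 and Ldha are shown because Ldhb and Pgk1 had the smallest p-values among the members and Ldha encodes the partner isoenzyme of Ldhb. They are the 250 bases before the RefSeq start on GRCm38.p6, 5′ to 3′ on the gene's strand: chr6:142507958-142508207 (minus strand) for Ldhb, chrX:106186850-106187099 (plus strand) for Pgk1 and chr7:46845554-46845803 (plus strand, the first of 2 starts) for Ldha. Capitals mark ACGTG and GCGTG, the core letters of hypoxia response elements, on either strand; CACGTG, the E-box bound by the MYC and ChREBP families, contains ACGTG on both strands.
Ldhb: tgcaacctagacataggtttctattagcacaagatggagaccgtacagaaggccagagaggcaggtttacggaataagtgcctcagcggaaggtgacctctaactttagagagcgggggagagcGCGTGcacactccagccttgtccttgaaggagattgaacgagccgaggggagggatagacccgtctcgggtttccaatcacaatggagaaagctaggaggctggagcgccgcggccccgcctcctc
Pgk1: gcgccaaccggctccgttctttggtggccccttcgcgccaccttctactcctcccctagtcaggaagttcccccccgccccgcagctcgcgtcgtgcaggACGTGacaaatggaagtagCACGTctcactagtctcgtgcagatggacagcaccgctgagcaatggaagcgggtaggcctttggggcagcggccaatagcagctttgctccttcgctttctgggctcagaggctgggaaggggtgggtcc
Ldha: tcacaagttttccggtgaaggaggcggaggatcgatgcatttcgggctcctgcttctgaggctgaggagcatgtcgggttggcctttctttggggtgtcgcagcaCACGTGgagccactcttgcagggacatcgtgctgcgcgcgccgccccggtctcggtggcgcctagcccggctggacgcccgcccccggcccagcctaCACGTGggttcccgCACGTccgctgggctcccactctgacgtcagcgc
The Ldhb window held 1 GCGTG, 0 ACGTG and 0 CACGTG, the Pgk1 window held 2 ACGTG and 0 CACGTG, and the Ldha window held 5 ACGTG, 4 of them within its 2 CACGTG. Over windows of the 250 bases before each RefSeq start, CACGTG was found for 7 of 35 members (20%) and 6.86% of 27025 genes. ACGTG was found for 14 members (40%) and 18.5% of genes, and GCGTG for 21 members (60%) and 30.9% of genes. Members had 51 windows for 35 genes and all genes 32851 windows for 27025, and a gene counts where any of its windows holds the letters. Among the 14 members above in both IQ3pos libraries, 2 held CACGTG, 4 ACGTG and 8 GCGTG, against 5, 9 and 12 of the other 16 tested members; the 14 had 15 windows and the 16 had 31, so these counts do not rest on equal lengths of sequence. A match describes these letters and is no evidence of binding.

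The 3 genes of glucose entry and its first phosphorylation had a median log2 difference of −0.11. Of these, 0 stood above, 1 below and 2 overlapped, where 25.5% of all tested genes stood above and 21.6% below. Slc2a1, the glucose transporter GLUT1, stood at 3.04 and 14.3 in IQ3pos libraries and at 3.50 and 14.9 in IQ3neg libraries, so the spread between pools exceeded any difference between fractions. Hk2, an inducible hexokinase that binds mitochondria, stood at 25.5 and 15.1 in IQ3pos libraries and at 26.7 and 33.7 in IQ3neg libraries (log2 difference −0.58 ± 0.57 SE, limma adjusted p = 0.643). It was the only tested member below in both IQ3pos libraries, with log2 differences of −0.06 in the 3-mouse pools and −1.1 in the 4-mouse pools, and on the deposited CPM without a composition factor its difference turned to 0.092. Hk1, the widely expressed hexokinase, stood at 10.7 and 5.55 in IQ3pos libraries and at 0.698 and 14.3 in IQ3neg libraries, with opposite directions in the 3-mouse and the 4-mouse pools. Summed over the 3 genes, uptake and phosphorylation stood at 39.3 and 35 in IQ3pos libraries and at 30.9 and 63.0 in IQ3neg libraries, which overlap.

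In upper glycolysis, from glucose 6-phosphate to the triose phosphates, 2 of 9 tested members (22.2%) stood above in both IQ3pos libraries and 7 overlapped, where 25.5% of all tested genes stood above. The median log2 difference of the 9 was −0.24. Those 2 were the isomerase genes. Gpi1, glucose 6-phosphate isomerase, stood at 114 and 152 in IQ3pos libraries and at 74.4 and 48.7 in IQ3neg libraries (log2 difference 1.12 ± 0.41 SE, limma adjusted p = 0.300). Tpi1, triose phosphate isomerase, stood at 222 and 299.7 in IQ3pos libraries and at 96.7 and 141 in IQ3neg libraries (log2 difference 1.14 ± 0.36 SE, limma adjusted p = 0.264). Their means were 2.17 and 2.20 times higher in IQ3pos, and DESeq2 called Tpi1 (adjusted p = 0.0213).

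The kinase and aldolase steps between the isomerases showed no common direction. Pfkl, the liver type of phosphofructokinase and the most abundant per length of the 3 types in every library, stood at 28.6 and 105 in IQ3pos libraries and at 49.6 and 85.0 in IQ3neg libraries. Pfkp, the platelet type, stood at 26.4 and 66.0 against 33.7 and 49.5. For both, the lowest and the highest value were the 2 IQ3pos libraries. Aldoa, the main aldolase, stood at 160.4 and 304 in IQ3pos libraries and at 265 and 275 in IQ3neg libraries (log2 difference −0.29 ± 0.39 SE, limma adjusted p = 0.747). The differences of Pfkl and Aldoa were positive on the deposited CPM without a composition factor, at 0.45 and 0.41.

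Several minor isoenzymes of these steps were near 0 in a single library. Pfkm, the muscle phosphofructokinase, stood at 0.0395 (5 reads) and 18.8 in IQ3pos libraries and at 2.75 and 9.37 in IQ3neg libraries. Aldoc, the brain type of aldolase, stood at 22.1 and 19.7 in IQ3pos libraries and at 0.0473 (4 reads) and 34.0 in IQ3neg libraries. Pfkfb2 and Pfkfb3 make and break fructose 2,6-bisphosphate, which activates phosphofructokinase. Pfkfb2 stood at 0.0316 (4 reads) and 8.10 in IQ3pos libraries and at 7.15 and 9.15 in IQ3neg libraries, and Pfkfb3 at 5.93 and 0.0307 (10 reads) against 4.47 and 6.43. Each IQ3pos library thus had counted reads of almost a single gene of the pair: Pfkfb2 was 0.552 and 99.6% of their summed level per kilobase in IQ3pos libraries, against 62.5 and 59.7% in IQ3neg libraries. Another annotated gene, Gm29427, holds 15.9% of the 50-base stretches of Pfkfb2 transcripts. It stood at 2.08 (264 reads) and 0 in IQ3pos libraries and at 0 and 0.223 (78 reads) in IQ3neg libraries. Whether Pfkfb2 reads were counted there was not tested. In Pfkm, Aldoc, Pfkfb2 and Pfkfb3 the differences in the 3-mouse and the 4-mouse pools were far apart, for example 4.46 and −0.75 for Aldoc.

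**Figure D2:**
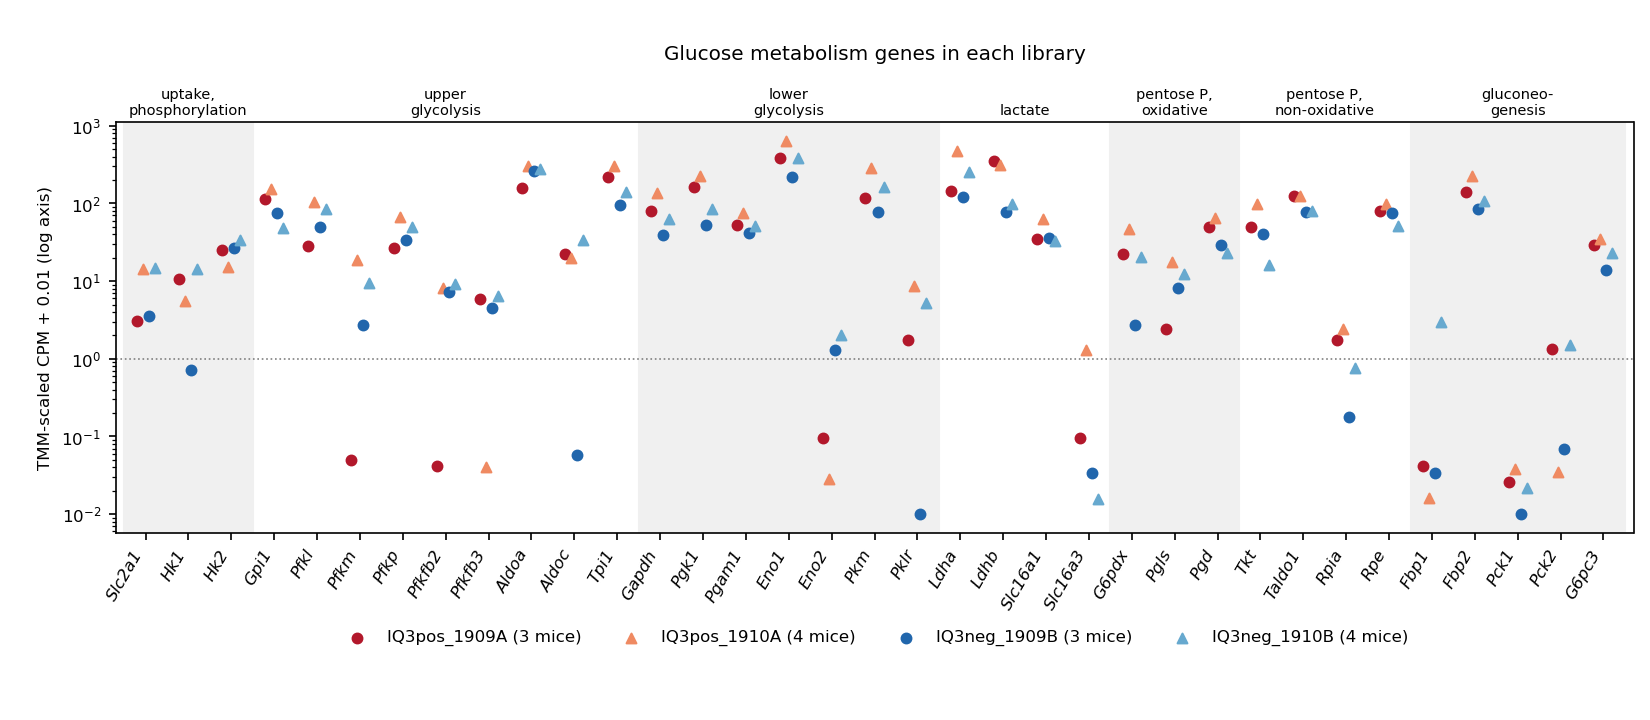
Level of each of the 35 genes in each library, as TMM-scaled CPM with 0.01 added on a log axis; points are single libraries, and the dotted line marks a value of 1. Pfkm, Pfkfb2, Pfkfb3 and Aldoc each have 1 library more than 50 times below the others, while Eno1, Aldoa, Ldha, Ldhb, Tpi1 and Pgk1 lie above 50 in every library.

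In lower glycolysis, from glyceraldehyde 3-phosphate to pyruvate, all 6 tested members had positive log2 differences in both the 3-mouse and the 4-mouse pools. All 6 limma differences were positive, as were 52.9% of those of all tested genes. The median of the 6 was 0.90, and 3 stood above in both IQ3pos libraries, where 25.5% of all tested genes did so. Pgk1, phosphoglycerate kinase, which makes the first ATP of the pathway, stood at 164 and 228 in IQ3pos libraries and at 52.1 and 86.0 in IQ3neg libraries. Its mean was 2.84 times higher in IQ3pos (log2 difference 1.52 ± 0.41 SE, limma adjusted p = 0.235; DESeq2 adjusted p = 0.00460). Gapdh, the dehydrogenase often used as a reference gene, stood at 80.7 and 138 in IQ3pos libraries and at 39.4 and 63.3 in IQ3neg libraries (log2 difference 1.06 ± 0.47 SE, limma adjusted p = 0.357).

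The later enzymes leaned less. Pgam1, phosphoglycerate mutase, stood at 52.3 and 76.3 in IQ3pos libraries and at 42.2 and 51.5 in IQ3neg libraries, a gap of under 1 CPM between the nearest libraries. Eno1, the main enolase, stood at 379 and 636 in IQ3pos libraries and at 221 and 381 in IQ3neg libraries, which just overlap. Pkm, the pyruvate kinase gene of most tissues, stood at 116 and 285 in IQ3pos libraries and at 77.9 and 165 in IQ3neg libraries. For all 3, the limma adjusted p lay between 0.440 and 0.659. Eno2, the neuronal enolase, was the exception to the lean and did not pass the filter on low values. It stood at 0.0869 and 0.0184 in IQ3pos libraries (11 and 6 reads) and at 1.28 and 2.04 in IQ3neg libraries (108 and 714 reads). In edgeR its log2 difference was −5.74 (edgeR adjusted p = 0.298). Enteroendocrine, chief and tuft cell markers and Muc6, which lie on the same side, are given above, and their part in the Eno2 level was not tested. Pklr, the liver and red cell pyruvate kinase, stood at 1.74 and 8.64 in IQ3pos libraries and at 0 and 5.23 in IQ3neg libraries, where 3 reads in IQ3neg_1909B would be 0.0355. Erythroid markers were low throughout (summed 1.1 and 0.0768 in IQ3pos libraries, 13.8 and 2.74 in IQ3neg libraries).

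At the lactate step the B subunit gene Ldhb had the smallest adjusted p of all members. Ldhb (6:142490249-142507957, minus strand) encodes the heart type subunit, found in tissues that oxidise lactate, and stood at 349.6 and 317 in IQ3pos libraries and at 77.0 and 99.7 in IQ3neg libraries. The IQ3pos mean of 333 ± 22.9 was 3.77 times the IQ3neg mean of 88.4 ± 16.0 (SD over 2 libraries), with no overlap (log2 difference 1.91 ± 0.32 SE, limma adjusted p = 0.114). Within the 3-mouse pools the difference was 2.17 and within the 4-mouse pools 1.66. Over 14 alternative settings it ran between 1.45 and 2.61. Among other settings it passed the threshold with a filter at a mean of 5 CPM (limma adjusted p = 0.0471) and in DESeq2 (adjusted p = 2.61e-05). It also did so with a block for the library number (limma adjusted p = 0.00544), though no label says that equal numbers mark the same mice. Over all 14 the adjusted p of limma, edgeR or DESeq2 ran between 2.61e-05 and 0.427.

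Ldha (7:46841475-46855627, plus strand), the muscle type subunit that is linked to lactate production, did not share this separation. It stood at 146 and 471 in IQ3pos libraries and at 122 and 252 in IQ3neg libraries (log2 difference 0.58 ± 0.64 SE, limma adjusted p = 0.691), so the lower IQ3pos value lay between the IQ3neg values. Per kilobase of exon, Ldhb made up 83.5 and 58.7% of the Ldha and Ldhb sum in IQ3pos libraries and 57.2 and 45.4% in IQ3neg libraries. The share was higher in IQ3pos within each pool size, but the lowest IQ3pos share and the highest IQ3neg share differed by under 2 percentage points, and the smallest two-sided exact permutation p that 2 libraries against 2 allow is 0.33. Slc16a1, the monocarboxylate transporter MCT1, stood at 35.2 and 62.9 in IQ3pos libraries and at 35.8 and 32.4 in IQ3neg libraries, with almost no difference in the 3-mouse pools (−0.02). Slc16a3, the lactate exporter MCT4, stood at 0.0869 and 1.27 in IQ3pos libraries (11 and 414 reads) and at 0.0237 and 0.00572 in IQ3neg libraries (2 reads each). It did not pass the filter on low values, and in edgeR its log2 difference was 6.30 (edgeR adjusted p = 0.328).

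**Figure D3:**
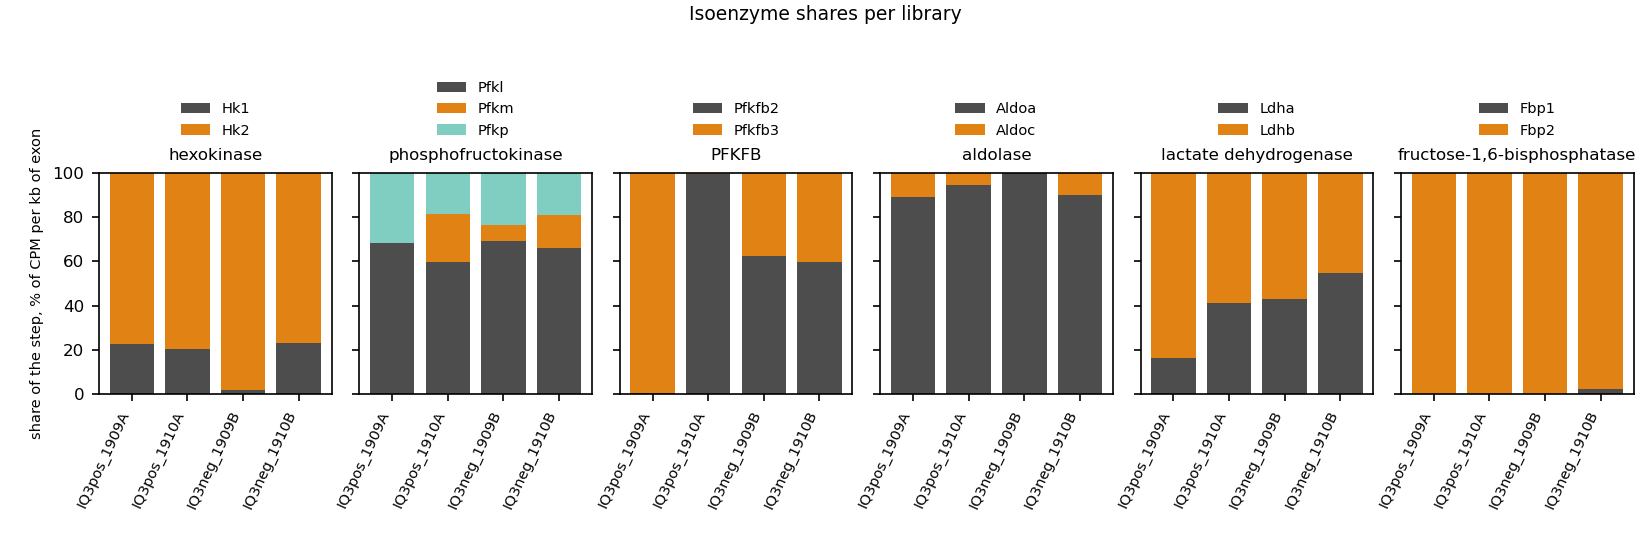
Share of each isoenzyme in the summed scaled CPM per kilobase of exon of its step, in percent, for 6 steps, with each bar 1 library. The Ldhb share is 83.5 and 58.7% in IQ3pos libraries and 57.2 and 45.4% in IQ3neg libraries, and Fbp2 makes up at least 97.6% of its step in every library.

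In the oxidative arm of the pentose phosphate pathway, both NADPH-producing dehydrogenases stood above in both IQ3pos libraries, where 25.5% of all tested genes did so. G6pdx, glucose 6-phosphate dehydrogenase, the entry enzyme (X:74409483-74429194, minus strand), stood at 22.6 and 47.3 in IQ3pos libraries and at 2.67 and 20.4 in IQ3neg libraries. It had the largest limma log2 difference of the tested members at 1.93, with a wide error (1.0 SE, limma adjusted p = 0.423). Its nearest libraries were 22.6 in IQ3pos and 20.4 in IQ3neg. Pgd, 6-phosphogluconate dehydrogenase, stood at 49.8 and 64.8 in IQ3pos libraries and at 29.2 and 23.0 in IQ3neg libraries (log2 difference 1.1 ± 0.47 SE, limma adjusted p = 0.346). Pgls, the lactonase between them, stood at 2.39 and 17.9 in IQ3pos libraries and at 8.13 and 12.3 in IQ3neg libraries, so it overlapped and pointed in opposite directions in the 3-mouse and 4-mouse pools (−1.43 and 0.51).

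All 4 genes of the non-oxidative arm stood above in both IQ3pos libraries, where 25.5% of all tested genes did so, with a median log2 difference of 0.86. Tkt, transketolase, which moves carbon pairs between sugars, stood at 49.4 and 99.5 in IQ3pos libraries and at 40.9 and 16.2 in IQ3neg libraries (log2 difference 1.41 ± 0.64 SE, limma adjusted p = 0.363). Most of this lay in the 4-mouse pools, with 2.54, where the 3-mouse pools gave 0.27. Taldo1, transaldolase, had near-equal libraries within each fraction: 124 and 123 in IQ3pos libraries and 78.7 and 79.4 in IQ3neg libraries (log2 difference 0.64 ± 0.34 SE, limma adjusted p = 0.437), a 1.56-fold difference of means that was nearly equal in both pool sizes (0.65 and 0.63). Rpe, the ribulose phosphate epimerase, stood at 81.1 and 98.7 in IQ3pos libraries and at 75.4 and 50.9 in IQ3neg libraries. Rpia, the ribose phosphate isomerase that makes the precursor of nucleotides, was low, with 1.72 and 2.40 in IQ3pos libraries and 0.166 and 0.755 in IQ3neg libraries. Its deposited CPM were 2.40 and 2.80 in IQ3pos libraries and 0.122 and 0.631 in IQ3neg libraries. It therefore passed the filter on low values only through the IQ3pos libraries, and the counts of members above include it. Over both arms, 6 of 7 members (85.7%) stood above, where 25.5% of all tested genes did so. The summed level was 331 and 454 in IQ3pos libraries and 235 and 203 in IQ3neg libraries. Of the 7, 0 passed the test or an unadjusted p of 0.05 in limma. Markers of dividing, pit and parietal cells and the neck cell marker Tff2, with values given above, lay on the same side as these genes. Their part was not tested.

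**Figure D4:**
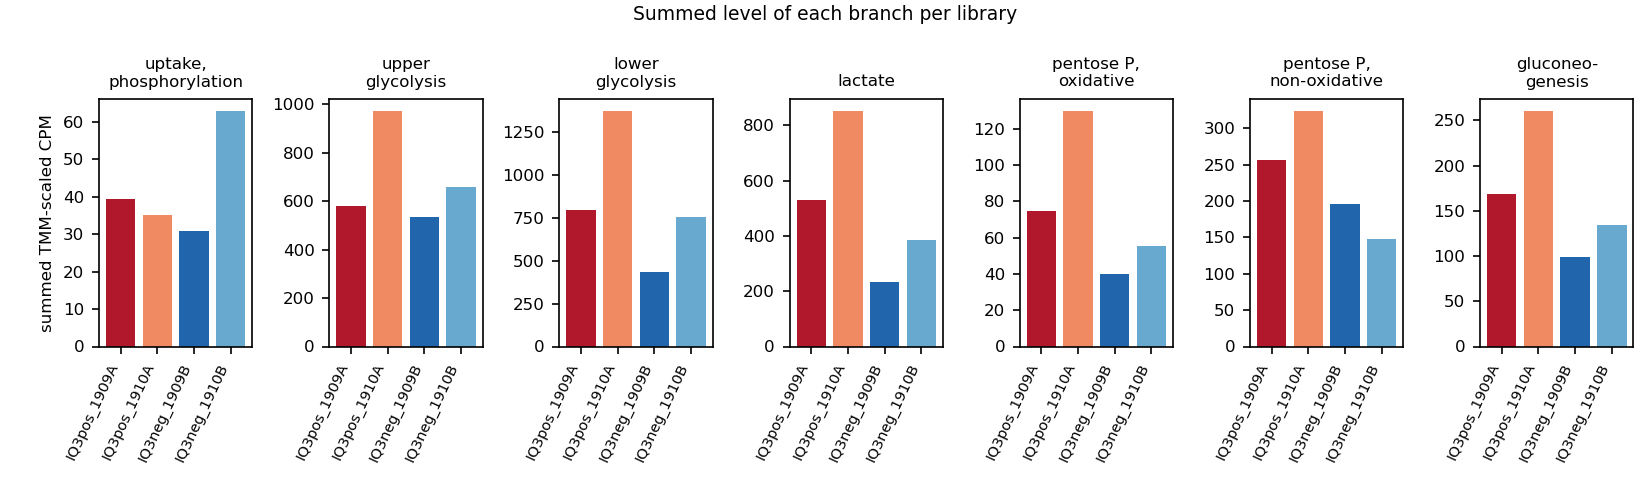
Summed TMM-scaled CPM of the genes of each of 7 branches in each library, IQ3pos left of IQ3neg. Lower glycolysis, lactate handling, both arms of the pentose phosphate pathway and gluconeogenesis have both IQ3pos libraries above both IQ3neg libraries, while upper glycolysis (579.6 and 974 in IQ3pos, 534 and 658 in IQ3neg) and uptake overlap.

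Of the 5 gluconeogenic genes, Fbp2 and G6pc3 passed the filter on low values. Both stood above in both IQ3pos libraries, where 25.5% of all tested genes did so. Fbp2 (13:62836877-62858422, minus strand), the muscle type of fructose-1,6-bisphosphatase, stood at 138 and 226 in IQ3pos libraries and at 84.9 and 106 in IQ3neg libraries (log2 difference 0.89 ± 0.39 SE, limma adjusted p = 0.356). Its neighbour Fbp1 (13:62864753-62888282, minus strand), the liver type, stood at 0.0316 and 0.00614 in IQ3pos libraries (4 and 2 reads) and at 0.0237 and 2.97 in IQ3neg libraries (2 and 1039 reads), so IQ3neg_1910B alone held more than a trace. G6pc3, the widely expressed glucose 6-phosphatase, stood at 29.0 and 34.9 in IQ3pos libraries and at 13.9 and 23.1 in IQ3neg libraries (log2 difference 0.79 ± 0.57 SE, limma adjusted p = 0.576). Pck1, the cytosolic PEP carboxykinase that controls gluconeogenesis in liver, had 2 and 9 reads in IQ3pos libraries and 0 and 4 in IQ3neg libraries, at most 0.0276 scaled CPM. Pck2, the mitochondrial form, stood at 1.34 and 0.0246 in IQ3pos libraries and at 0.0592 and 1.51 in IQ3neg libraries, high in 1 library of each fraction. In edgeR its log2 difference was −1.48 (edgeR adjusted p = 0.739).

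Compared between genes per kilobase of exon, Ldhb had the highest mean level of the 35 over the 4 libraries (134), followed by Fbp2 (94.5), Aldoa (86.3), Eno1 (75.2), Ldha (74.8), Tpi1 (68.9), Pgk1 (59.1) and Taldo1 (46.7). Neighbours in this order overlapped: Ldhb ran between 49.0 and 223, Fbp2 between 57.8 and 154 and Aldoa between 55.1 and 105. The length is that of all annotated exons together, so genes with long alternative exons appear lower.

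Several of these transcripts have near-identical copies elsewhere in the genome, and how reads that fit several places were counted was not given in the sources used here. Of the 50-base stretches of the annotated transcripts, 53.9% for Pgk1, 36.2% for Pgam1, 26% for Eno1, 25.8% for Pkm, 24.7% for Gapdh and 21% for Ldhb also occur in another annotated gene, so the levels of these 6 genes are uncertain to the extent that reads were split or dropped. The share was 18.85% for Pgls, 15.9% for Pfkfb2, 9.035% for Ldha, 8.83% for Pfkm and 8.23% for Gpi1. It was 6.67% for Taldo1, 6.46% for G6pdx, 5.13% for Aldoa and 4.18% for Tpi1. The levels of these genes are uncertain in the same way. Among the members with a share of 0 were Hk2, Tkt, Rpe, Fbp2 and G6pc3. The closest copies of Ldhb and Eno1 took few reads: Gm5514 stood at 7.38 and 3.59 in IQ3pos libraries and at 1.66 and 1.02 in IQ3neg libraries, and Eno1b at 0.995 and 8.75 against 0.544 and 4.73. The Pgk1 copy Pgk1-rs7 stood at 0.126 and 0.0645 in IQ3pos libraries and at 0 and 0.0343 in IQ3neg libraries.

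Of 83 other glucose metabolism genes, which cover further transporters, pyruvate entry into mitochondria, shuttles, glycogen, fructose, galactose and regulators, 62 were tested and 0 were called. Both IQ3pos libraries stood above both IQ3neg libraries for 18 (29.0%) and below for 9 (14.5%), with a median log2 difference of 0.33, beside 25.5% above, 21.6% below and a median of 0.10 over all tested genes, so the share above lay near that of all genes. The most abundant were Bsg, the chaperone of monocarboxylate transporters, the malate dehydrogenases Mdh1 and Mdh2, and Pdhb, a pyruvate dehydrogenase subunit. Mdh2, the mitochondrial form, stood at 715 and 1061 in IQ3pos libraries and at 401 and 513 in IQ3neg libraries (log2 difference 0.94, limma adjusted p = 0.278). Mdh1, the cytosolic form, stood at 710.1 and 802 in IQ3pos libraries and at 467 and 426 in IQ3neg libraries (log2 difference 0.76, limma adjusted p = 0.283). Bsg overlapped (log2 difference 0.44), and Pdhb stood at 254 and 312 in IQ3pos libraries and at 236 and 193 in IQ3neg libraries.

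The largest differences without overlap in that list were mostly negative. Slc37a4, the transporter that brings glucose 6-phosphate into the endoplasmic reticulum, stood at 0.0553 and 0.0307 in IQ3pos libraries and at 3.29 and 10.3 in IQ3neg libraries (log2 difference −2.74, limma adjusted p = 0.298). Mlxipl, the glucose-sensing transcription factor ChREBP, stood at 0.0632 and 0.0491 in IQ3pos libraries and at 7.15 and 4.02 in IQ3neg libraries (log2 difference −2.60, limma adjusted p = 0.291). Khk, the fructose kinase, stood at 0.0316 and 3.98 in IQ3pos libraries and at 8.83 and 15.5 in IQ3neg libraries. Rbks, a ribokinase, stood on the other side, with 11.8 and 9.24 in IQ3pos libraries and 0.343 and 3.72 in IQ3neg libraries. Bpgm, which makes 2,3-bisphosphoglycerate and is named after its values were seen, stood at 64.6 and 36.4 in IQ3pos libraries and at 109 and 106 in IQ3neg libraries (log2 difference −1.13, limma adjusted p = 0.318). The part of the enteroendocrine, chief and tuft cell markers and of Muc6, which lie on the same side as Slc37a4, Mlxipl, Khk and Bpgm, was not tested.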

How the data were processed

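The table deposited by the authors holds CPM (the reads of a gene per 1000000 counted reads), by gene symbol and library, without a composition factor, since each column sums to 1000000. STAR 2.7.1a, featureCounts, Subread 2.0.0, edgeR and the build GRCm38/mm10 are named without role or order in the submitters' processing notes. The annotation, strand setting and multi-mapping treatment were not given in the sources used here. Whole reads were recovered from the CPM steps: 100% of values came out within 0.05 of a whole read. A read equals 0.00358 to 0.0110 CPM in IQ3pos libraries and 0.00239 to 0.00869 CPM in IQ3neg libraries. Without molecular identifiers, read numbers cover counting error only.

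The deposited CPM were divided by TMM factors (edgeR 4.0.16) and tested as log2(scaled CPM + 1) with limma-trend (limma 3.58.1, R 4.3.3) over the 13019 genes whose mean reached 1 CPM, as IQ3pos minus IQ3neg, two-sided, without a block and with Benjamini-Hochberg adjustment at 0.05. There were 2 residual and 4.05 prior degrees of freedom. On the log2(value + 1) scale the change of low genes is understated. The test was tested on simulated data, in which both fractions shared their mean levels apart from genes picked at random. That run did not copy the difference in composition between these fractions. It also gave every gene the same relative spread between libraries beyond counting error. It therefore does not show how the test performs on these libraries. Alternatives were other scalings, pseudocounts and filters, a block for the library number, leaving out each library, and count tests with edgeR and DESeq2 1.42.0. DESeq2 was run on the same 13019 genes. Scaling moved the median log2 difference of all genes, which was 0.10 with TMM, 0.68 on the deposited CPM, 0.01 with DESeq2 size factors and −0.26 without the 20 most abundant genes.

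Gene positions and exon lengths are from GENCODE vM21 on GRCm38, 1-based, and promoters from RefSeq on GRCm38.p6, in which all 35 members matched by symbol. Rows with a repeated symbol (109) were kept apart, a second Aldoa row at 0 in every library among them. All 35 members are accounted for. Full values are given for members past the threshold, for up to 8 members of largest difference without overlap in each direction, for the most abundant isoenzyme of each step and for the gluconeogenic genes. In the list of other glucose genes, with none past the threshold, the 4 most abundant and the 4 of largest difference without overlap are named. The members, lists and tests were chosen with earlier results of these data known.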

Additional observations from a re-analysis of the deposited data

Results flagged for a closer look

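In 4 genes the difference between the fractions pointed in opposite directions in the 3-mouse and the 4-mouse libraries, by at least 0.5 on the log2 scale in each; the difference between pool sizes was not tested, since each holds 1 library per fraction. Hk1 differed by 2.79 in the 3-mouse pools and by −1.23 in the 4-mouse pools. Pfkm differed by −1.85 in the 3-mouse pools and by 0.93 in the 4-mouse pools. Aldoc differed by 4.46 in the 3-mouse pools and by −0.75 in the 4-mouse pools. Pgls, the lactonase, differed by −1.43 in the 3-mouse pools and by 0.51 in the 4-mouse pools. In Pfkm and Aldoc, 1 library held 5 reads and 4 reads.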

How the results depend on the processing

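Of the 30 tested members, 17 kept their direction in every alternative run and 13 turned in at least 1. On the deposited CPM without a composition factor, the log2 differences of Slc2a1 (0.47), Hk2 (0.092), Pfkl (0.45), Aldoa (0.41) and Pgls (0.14) turned positive. Pfkp turned to −0.062 with DESeq2 size factors, −0.018 in edgeR and −0.25 without the 20 most abundant genes. Pfkm turned to 0.053 with a pseudocount of 5, 0.37 in edgeR and 0.40 in DESeq2, and Hk1 to −0.20 in edgeR. With each library left out in turn, the log2 difference ran between −1.28 and 0.81 for Slc2a1, −1.07 and 2.41 for Hk1, −1.15 and 0.45 for Pfkl, −2.52 and 1.44 for Pfkm, −0.60 and 0.45 for Pfkp, −2.57 and 0.12 for Pfkfb3, −0.95 and 4.46 for Aldoc, −0.14 and 1.21 for Pkm, −0.51 and 2.43 for Pklr, −0.26 and 1.19 for Ldha and −1.68 and 0.56 for Pgls. The cause of these turns was not tested.

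Members called higher numbered 0 in the test as reported, 1 with a mean of at least 5 CPM, 2 with the replicate block and 3 in DESeq2, and 0 in every other alternative, while 0 were called lower in any. Members above in both IQ3pos libraries numbered 14 as reported and 11 to 23 with a library left out: 11 of 31 without IQ3neg_1909B (27.2% of all genes above), 15 of 31 without IQ3pos_1910A (37.4%), 20 of 30 without IQ3neg_1910B (40.6%) and 23 of 30 without IQ3pos_1909A (41.1%). Members below numbered 1 as reported, 0 on the deposited CPM (14.2% of all genes below), 3 with DESeq2 size factors (23.3%) and 3 in DESeq2 (22.8%), 4 of 33 in edgeR (22.8%), 4 of 33 when the 20 most abundant genes were left out (27.4%), 2 of 35 with no filter (10.5%) and 1 to 8 with a library left out (30.1 to 40.3%). The members' median difference was 1.35 on the deposited CPM and 0.014 to 0.96 with a library left out. Relative to the median of all genes it was 0.62 as reported and 0.24 to 0.84 over all 14 alternatives.

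Over all genes, 28 were called as reported, 0 on the deposited CPM, 41 with DESeq2 size factors, 11 without the 20 most abundant genes, 1 with a pseudocount of 0.1, 72 with a pseudocount of 5, 0 with no filter, 115 with a mean of at least 5 CPM, 504 with the replicate block, 45 in edgeR, 1791 in DESeq2 and 0 with any library left out. No label says whether same-numbered libraries come from the same mice. Their deviations correlated at r = 0.153 over 13019 genes, and with 2 pairs this value cannot decide the point. With the replicate block, Ldhb (limma adjusted p = 0.00544) and Pgk1 (limma adjusted p = 0.0323) passed the threshold, where 2.34% of all genes were called higher and 1.54% lower. With 2 libraries per fraction, a difference in a gene that holds few reads in 1 library rests on that library.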
